A study of Saccharomyces cerevisiae with 4 samples.

Results

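The 6 genes described here, MET4, MET28, MET31, MET32, CBF1 and MET30, encode the transcriptional regulators of sulfur metabolism in budding yeast. They were taken by name, as the probe sets that the platform annotation gives to these genes. Each gene had 1 probe set, so the members were 6 of the 5376 probe sets tested and 6 of 5330 genes. Signal was compared between the long-lived SSG1-1 mutant (2 arrays) and the wild type W303-1A (2 arrays), the question being how expression across the genome differs in the mutant. Cells of either strain came from rich YPD medium at 25 °C, were pre-grown in synthetic SDC medium (pH 6.0), and were harvested in early-log phase after 12 h in fresh SDC, at a density of 2000000 per ml. The labels name no other allele in either strain. They give neither the gene that carries the SSG1-1 mutation nor the parent strain of the mutant. They also leave unsaid whether replicate arrays stand for independent cultures. P-values therefore cover only array-to-array spread, part or all of which may be technical. W303-1A is a strain of mating type a. All 6 listed markers of a cells were called present in both strains, as were all 4 listed markers of alpha cells, so the detection calls did not tell the mating types apart.

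Yeast makes cysteine, methionine and S-adenosylmethionine from sulfate, and the genes of that route are switched on together when sulfur amino acids run short. Met4, a protein of the basic leucine zipper class, is the activator, but it does not bind DNA by itself. It is brought to promoters by Cbf1, a basic helix-loop-helix protein, or by the zinc finger proteins Met31 and Met32, and the small leucine zipper protein Met28 steadies the complex on DNA. Met30 is the F-box subunit of an SCF ubiquitin ligase that marks Met4 and shuts it off when sulfur amino acids are plentiful. MET28, MET32 and MET30 are themselves known targets of Met4. Much of the control of Met4 acts on the protein, which arrays do not measure.

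Signals are given in array units after quantile normalization of the 4 arrays, and a signal is comparable only with that of the same probe set on another array. Over all tested probe sets, the log2 difference (mutant minus wild type) had a median of -0.02 after this step and -0.15 in the signals as deposited. The 6 probe sets were called present in both detection-call columns used, which cover 1 array per strain. Of 5498 probe sets named for a single S. cerevisiae gene, 5376 were present in at least 1 of these columns, which was the filter for testing. The call therefore does not set the regulators apart.

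None of the 6 regulators passed an adjusted p under 0.05 in limma fitted by strain alone, against 1 of 5376 probe sets (0.0186%), which was HRI1. The calls differed with a replicate block and are given in the closing section. At an unadjusted p under 0.05, 2 of the 6 passed, against 243 of all tested probe sets (4.52%). Of these 2, MET32 was on the higher side, as were 2.72% of all probe sets, and MET31 on the lower side, as were 1.80%. The mutant arrays of MET32 lay above the wild-type arrays with no overlap, as for 14.0% of all probe sets. Those of MET31 and MET30 lay below them with no overlap, as for 18.0% of all probe sets. MET4, MET28 and CBF1 overlapped between the strains. The 6 log2 differences ran from -0.48 for MET31 to 0.61 for MET32 with a median of -0.18, while 90% of all probe sets lay between -0.34 and 0.38.

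**Figure D1:**
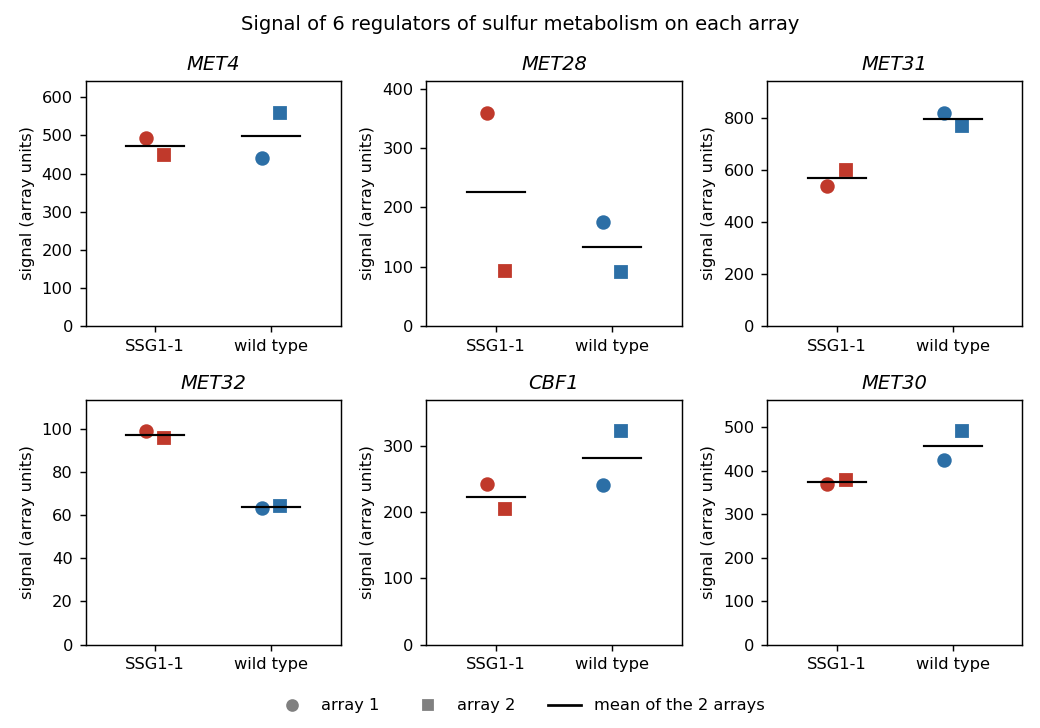
Signal of each regulator (vertical axes, array units from 0, 1 panel per gene) on the SSG1-1 arrays (red, left) and the wild-type arrays (blue, right). Circles are arrays numbered 1, squares arrays numbered 2 and lines the mean of 2 arrays. MET32 lies higher in the mutant with little spread (97.5 against 63.9), MET31 lower (569.8 against 794), and MET28 follows the array number in both strains.

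MET31 and MET32 encode closely related zinc finger proteins that share a binding site and overlap in function. MET31 had signals of 539.8 and 599.7 in the mutant, against 819 and 769.8 in the wild type. Both mutant arrays were lower, and the gap between strains was wider than the gap between arrays of a strain. The log2 difference was -0.48 ± 0.14 (SE, n = 2 per strain), 0.72 times the wild-type level, with an unadjusted 95% interval from -0.85 to -0.11 (limma adjusted p = 0.944). It was -0.60 between the arrays numbered 1 and -0.36 between those numbered 2.

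MET32 stood the other way, with signals of 98.9 and 96.1 in the mutant, against 63.4 and 64.3 in the wild type. Its arrays within a strain differed less than those of any other regulator in the wild type (SD of log2 signal 0.01), and the SD was 0.03 in the mutant. The log2 difference was 0.61 ± 0.22 (SE, n = 2 per strain), 1.53 times the wild-type level, with an unadjusted 95% interval from 0.05 to 1.17 (limma adjusted p = 0.998). The standard error is larger than this spread because limma moderates it towards that of other probe sets of like signal. Within arrays numbered 1 and 2 the difference was 0.64 and 0.58. MET32 read low on the arrays, at percentile 4.97 of all tested probe sets by mean log2 signal. STE3, a listed marker of alpha cells, read 56.3 and 110.2 in the mutant, against 48.0 and 58.9 in the wild type. Its log2 difference was 0.57 ± 0.40 (SE), with the strains overlapping, and the other 3 alpha-cell markers were negative. Whether signals as low as those of MET32 stand above background was not tested. With log2(signal + 16) its difference was 0.51.

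Because both genes were read on the same arrays, the shift of MET32 relative to MET31 was also taken array by array, a comparison chosen after their values were seen. The log2 difference of MET32 exceeded that of MET31 by 1.09, a 2.13-fold change of the pair against each other. The pair's within-array log2 ratio averaged -2.54 ± 0.14 in the mutant and -3.64 ± 0.08 in the wild type (SD, n = 2 per strain). No test is given for this pair, since the choice rested on these values.

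MET4, the activator, had signals of 494 and 449.5 in the mutant, against 440.1 and 559 in the wild type. The mutant values lay between the wild-type values. Its log2 difference was -0.07 ± 0.18 (SE, n = 2 per strain), with an unadjusted 95% interval from -0.54 to 0.39 (limma adjusted p = 0.998). The sign turned to 0.10 without wild-type replicate 2.

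MET28, the cofactor of Met4, had signals of 359 and 93.5 in the mutant, against 176 and 91.2 in the wild type. The arrays numbered 1 were high in both strains and those numbered 2 low, and the strains overlapped. The log2 difference between strains was 0.53 ± 0.71 (SE, n = 2 per strain), with an unadjusted 95% interval from -1.28 to 2.35 (limma adjusted p = 0.998). It was 1.03 between the arrays numbered 1 and 0.04 between those numbered 2. Between numbers, arrays 1 minus arrays 2 across strains, MET28 differed by 1.44 on the log2 scale. That difference was larger in size than for 99.4% of tested genes, and MET28 was the only regulator among the 84 probe sets that differed by more than 1 unit between numbers. The other 5 regulators were between -0.12 and 0.01. Without mutant replicate 1 the strain difference of MET28 turned to -0.44, and without mutant replicate 2 it was 1.50. The labels do not give the meaning of the array numbers.

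CBF1 encodes a protein that brings Met4 to sulfur gene promoters and also binds centromeres. It had signals of 242.5 and 204.9 in the mutant, against 240.6 and 322.3 in the wild type. Mutant array 1 lay just above wild-type array 1, so the strains overlapped. The log2 difference was -0.32 ± 0.22 (SE, n = 2 per strain; limma adjusted p = 0.998), at 0.01 between the arrays numbered 1 and -0.65 between those numbered 2.

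MET30, the F-box gene, had signals of 370.1 and 379.4 in the mutant, against 424.1 and 490.8 in the wild type. Both mutant arrays were lower, and they lay closer together than the wild-type arrays. The log2 difference was -0.28 ± 0.16 (SE, n = 2 per strain), 0.82 times the wild-type level, with an unadjusted 95% interval from -0.68 to 0.12 (limma adjusted p = 0.998). It was -0.20 and -0.37 between arrays numbered 1 and 2.

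In the signals as deposited, all 6 regulators kept the sign of their difference, and more of them were separated by strain. There MET4, MET31, CBF1 and MET30 lay lower in the mutant with no overlap, as did 22.3% of all probe sets, and MET32 lay higher with no overlap, as did 3.40%. The deposited signals of CBF1 were 201 and 231.4 in the mutant, against 263.5 and 325.3 in the wild type. Those of MET4 were 410.7 and 488.5 in the mutant, against 489 and 551.1 in the wild type, a gap of less than 1 array unit at its closest. The deposited arrays also differed as a whole: the median signal of S. cerevisiae probe sets was 874 and 1084 in the mutant, against 1171 and 1012 in the wild type, so mutant array 1 was the dimmest and wild-type array 1 the brightest.

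**Figure D2:**
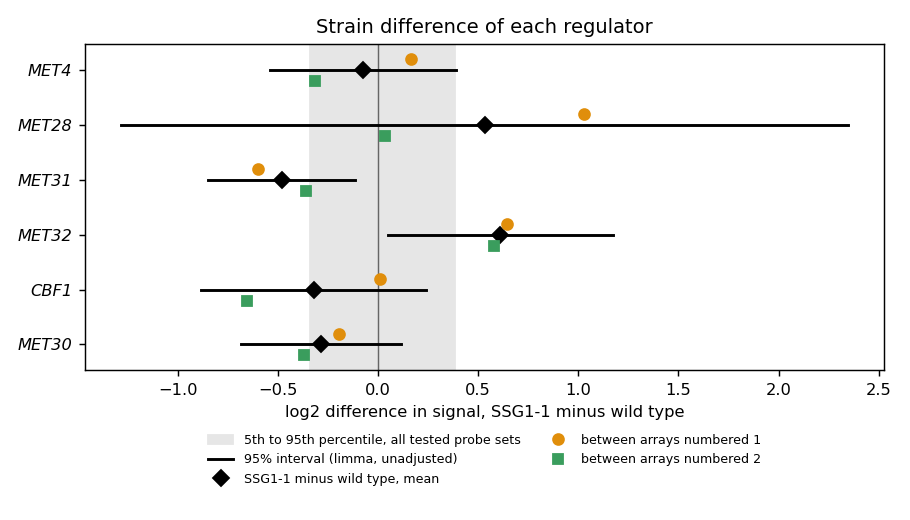
Log2 difference in signal, SSG1-1 minus wild type (horizontal axis), for each regulator (rows). Diamonds are the means of 2 arrays per strain with unadjusted 95% intervals from limma, circles and squares the differences between arrays numbered 1 and between arrays numbered 2, and the grey band holds the 5th to 95th percentile of all tested probe sets. The intervals of MET31 and MET32 lie on opposite sides of 0, and that of MET28 is the widest.

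The regulators also differed among themselves in their profile over the 4 arrays. Likeness was measured as the Euclidean distance between log2 signals after each gene's mean had been taken away, a description over 4 arrays only, in which genes that vary little lie close to many others. Among the 6, CBF1 and MET30 were the closest (0.25 log2 units), followed by MET4 with MET30 and MET4 with CBF1 (both 0.26). MET31 and MET32 were 1.10 apart. MET28 was the farthest from every other regulator, at 1.51 from MET32 to 1.89 from MET31.

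Over 4884 genes with a standard symbol, MET28 was closest to RMD6 (distance 0.15) and DAL80 (0.39), a repressor of nitrogen catabolic genes. RMD6 had signals of 1203 and 336 in the mutant, against 655 and 299.6 in the wild type, again high on the arrays numbered 1. Of the sulfur genes in the lists below, MET16 (rank 11, distance 0.54) and the sulfate permease gene SUL2 (rank 15, distance 0.61) came nearest to MET28. MET32 was closest to AIM24 (0.03) and the hexose transporter gene HXT11 (0.04), and nearest among the listed genes to MET17 (rank 24, distance 0.21), which encodes the enzyme that joins sulfide to O-acetylhomoserine. MET31 was closest to PWP2 (0.01), a gene of ribosome assembly, and RPC31 (0.03), a subunit of RNA polymerase III. MET30 was closest to HXT5 (0.03) and NOP4 (0.05), CBF1 to HRR25 (0.08) and FRE4 (0.11), and MET4 to LHS1 and PFD1 (both 0.06). Among the listed genes, MET4 was nearest to STP2 (rank 17), from the list of activators of other amino acid pathways. MET31 was nearest to the centromere gene CBF2 (rank 110). MET30 and CBF1 were nearest to SAM3 (ranks 108 and 185), listed among genes known to need Met4.

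**Figure D3:**
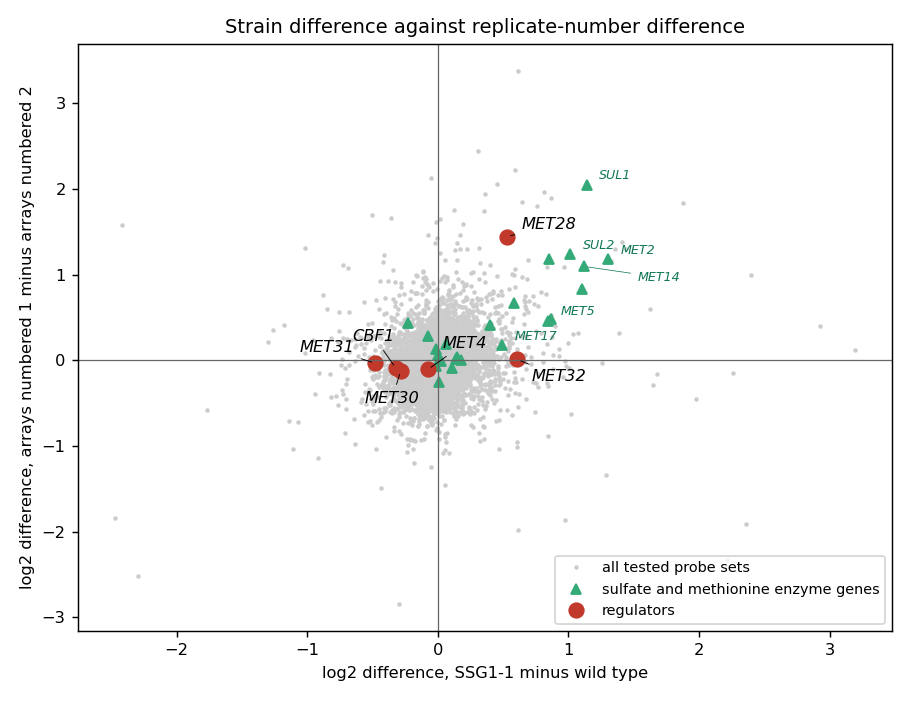
Log2 difference between strains, SSG1-1 minus wild type (horizontal axis), against log2 difference between arrays numbered 1 and arrays numbered 2 (vertical axis), for all tested probe sets (grey), 23 sulfate and methionine enzyme genes (green triangles) and the 6 regulators (red circles). MET28, at 0.53 and 1.44, lies near SUL2 and MET14 on the vertical axis, while the other regulators lie close to 0 on it.

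Genes of the sulfate and methionine pathways were set beside the regulators. They were listed by pathway, not by known control through Met4. None of the 10 genes of sulfate uptake and reduction passed the adjusted threshold. At an unadjusted p under 0.05, 3 passed (MET3, MET5 and MET10), all higher in the mutant, as were 2.72% of all probe sets. The median log2 difference of the 10 genes was 0.86, against -0.02 over all probe sets. It was positive for 9 of 10, against 2466 of all 5376 probe sets. The arrays of the strains did not overlap for 4 of them (MET3, MET5, MET10 and MET14), all higher in the mutant, as were 14.0% of all probe sets. SUL1, a sulfate permease gene, had the largest log2 difference at 1.14 ± 0.98 (SE), followed by MET14, the adenylylsulfate kinase gene, at 1.12 ± 0.51. At the low end were MET22 at 0.07 ± 0.12, negative in the deposited signals, and MET8 at -0.23 ± 0.25. MET14 had signals of 5014 and 2149 in the mutant, against 2119 and 1080 in the wild type. Like MET28, this group was also higher on arrays numbered 1, by a median of 0.66. Its median strain difference was 1.04 within number 1 and 0.68 within number 2.

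The 13 genes of homocysteine, cysteine and methionine synthesis had a smaller median of 0.11, which was -0.04 in the deposited signals. None passed the adjusted threshold, and 1 passed unadjusted, against 4.52% of all probe sets. That gene was MET17, at 0.49 ± 0.10 (SE). Both mutant arrays were higher for 6 and lower for 0, against 14.0% and 18.0% of all probe sets. MET2, which makes O-acetylhomoserine, stood at 1.30 ± 0.58 (SE) and STR3, a cystathionine beta-lyase gene, at 0.58 ± 0.36. MET12 at -0.07 ± 0.17 and HOM3 at -0.02 ± 0.07 were the lowest, and HOM3 was positive with median centring. The 4 genes of the S-adenosylmethionine cycle had differences between -0.10 for ADO1, the adenosine kinase gene, and 0.13 for SAH1, which breaks down S-adenosylhomocysteine, and 0 passed the adjusted threshold or the unadjusted one. The signs of the synthetase genes SAM1 (0.06) and SAM2 (-0.01) turned with the scaling.

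A separate list of 12 other genes known to need Met4 had a median of -0.05. It holds none of the pathway genes above, so its median does not stand for all genes that need Met4. In it 0 passed the adjusted threshold and 2 the unadjusted one, against 4.52% of all probe sets. These 2 were MHT1, which uses S-methylmethionine to methylate homocysteine, and MMP1, the S-methylmethionine permease gene. MHT1 had signals of 1242 and 873 in the mutant, against 416 and 381 in the wild type (log2 difference 1.39 ± 0.21 SE). MMP1 had 1662 and 1898 in the mutant, against 1061 and 1324 in the wild type (0.58 ± 0.17 SE). Both were higher on both mutant arrays, and MMP1 was lower, not higher, on arrays numbered 1 (-0.26). The lowest of the 12 were PDC6 at -0.40 ± 0.48 and the sulfonate dioxygenase gene JLP1 at -0.29 ± 0.39.

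The listed partners of Met30 and its ubiquitin ligase varied little. None of 9 passed the adjusted or the unadjusted threshold, and their median was -0.03. Both mutant arrays were lower for 3 of the 9 and higher for 0, against 18.0% and 14.0% of all probe sets. SKP1, the adaptor that holds the F-box protein, had signals of 1428 and 1484 in the mutant, against 1715 on both wild-type arrays (log2 difference -0.24 ± 0.12 SE). It was the lowest of the group, followed by UFD1 at -0.18 ± 0.16. The scaffold gene CDC53 stood at 0.09 ± 0.16, the ubiquitin-conjugating enzyme gene CDC34 at 0.07 ± 0.22, NPL4 at 0.08 ± 0.14 and the RING subunit gene HRT1 at -0.003 ± 0.13. CDC53, CDC34 and NPL4 were negative in the deposited signals. The 4 other F-box genes listed, CDC4, DIA2, GRR1 and UFO1, ran from -0.17 for UFO1 to 0.04 for DIA2, which was negative in the deposited signals, and 0 of the 4 passed either threshold.

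**Figure D4:**
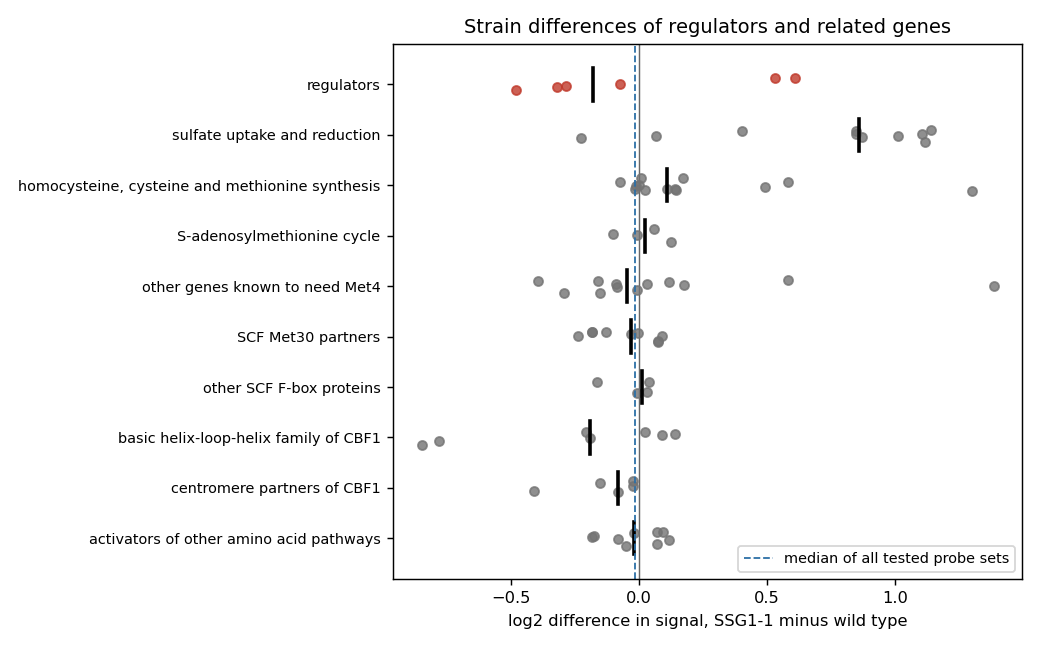
Log2 difference in signal, SSG1-1 minus wild type (horizontal axis), for the genes of each list (rows, 1 point per gene, spread vertically for visibility). Black bars are list medians and the dashed line is the median of all tested probe sets. The regulators (red) spread on both sides of 0 while 9 of 10 genes of sulfate uptake and reduction lie above it. Of all 5376 tested probe sets, 2466 lie above 0.

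The relatives and partners of Cbf1 were listed too. The other 7 basic helix-loop-helix genes had a median of -0.19, with 0 past the adjusted threshold and 1 past the unadjusted one, against 4.52% of all probe sets. RTG1, of the mitochondrial retrograde pathway, was the lowest at -0.85 ± 0.38 (SE), with signals of 43.7 and 32.3 in the mutant, against 88.0 and 51.9 in the wild type. PHO4, the activator of phosphate genes, followed at -0.78 ± 0.24 and was the gene past the unadjusted threshold. For both genes the mutant arrays lay below the wild-type arrays. The highest were TYE7 at 0.14 ± 0.47 and RTG3 at 0.09 ± 0.18, both negative in the deposited signals. Of 5 centromere genes, 0 passed either threshold. CBF2 (NDC10), of the CBF3 complex, stood at -0.41 ± 0.21 and CSE4, the centromeric histone gene, at -0.15 ± 0.17, while MIF2 and CTF13 were both at -0.02. CTF13 was positive with median centring.

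Of 9 activators of other amino acid pathways, 0 passed the adjusted or the unadjusted threshold, and their log2 differences ran from -0.18 to 0.12 with a median of -0.02. PUT3, of proline use, stood at -0.18 ± 0.17 (SE) and DAL81 at -0.17 ± 0.18, with ARG81, of arginine metabolism, at 0.12 ± 0.25 and STP1, of amino acid permease genes, at 0.10 ± 0.22, which was negative in the deposited signals. Of the 6 regulators, MET4 lay inside that range. How many of all probe sets lay outside it was not counted. The range rests on 9 genes and is narrower than the range of 90% of all probe sets, so lying outside it does not set a gene apart. MET4, CBF1 and MET30 lay inside the range of -0.34 to 0.38 that held 90% of all probe sets. Whether the regulators of sulfur metabolism differ from these activators as a group was not tested.

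The nearest tested protein-coding gene on each side of a regulator was taken from the gene order in the R64 reference of the S288C strain, a look chosen after values were seen. The neighbours of MET31 were YPL038W-A at 0.17 ± 0.37 (SE) and EGD1 at 0.01 ± 0.05, and those of MET32 were BTT1 at 0.13 ± 0.19 and CHL4 at -0.01 ± 0.14. All 4 overlapped between strains. On either side of MET30 were SYG1 at -0.39 ± 0.17 and PIG2 at 0.31 ± 0.20. Both mutant arrays were lower for SYG1, as for 18.0% of all probe sets, and higher for PIG2, as for 14.0%. SYG1 beside MET30 and NTA1 beside CBF1 were each 2 genes away, past a gene that was not tested. None of the 12 neighbours passed the adjusted threshold in limma or an unadjusted p under 0.05. The regulators' systematic names are YNL103W (MET4), YIR017C (MET28), YPL038W (MET31), YDR253C (MET32), YJR060W (CBF1) and YIL046W (MET30). Their coordinates are left out, since no genome build is named in the files.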

How the data were processed

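RNA of 2 SSG1-1 and 2 wild-type samples was hybridised to 4 one-colour Affymetrix arrays. The deposited table holds 1 linear signal intensity per probe set and array. The submitters' processing notes name GCOS with no version. How background was corrected, and to what target arrays were scaled, stands in none of the sources used here. Detection calls came from a second deposited table, in which 2 call columns follow columns whose headers name a strain. Another 4 columns, whose headers name no strain, were not used. Gene names are those of the platform annotation, updated through gene identifiers. Among 10928 probe sets, 5498 carried the name of a single S. cerevisiae gene and 5376 of these were called present in at least 1 usable call column.

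Signals below 0.1 were set to 0.1, taken to log2 and quantile normalized over all probe sets, because the 2% trimmed means differed between arrays (1034 and 1168 in the mutant, 1298 and 1122 in the wild type). Strains were compared with limma 3.58.1 in R 4.3.3 (lmFit and eBayes, mean-variance trend on) over all 5376 probe sets, p-values adjusted by Benjamini-Hochberg and called under 0.05. The fit was also run on simulated data with independent noise on each array. Such data do not carry the shared deviation of same-numbered arrays described below, so that run does not cover it. Precision is limited by the number of arrays. Over all probe sets the standard error of the log2 difference had a median of 0.163.

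The members and gene lists were chosen with earlier results of these data known. From each list the 2 highest and 2 lowest log2 differences are named, together with SKP1, CDC53, HRT1 and CDC34. MET3, MET5 and MET10 are named beyond that rule, as the remaining genes of a count of 4. MET16, SUL2, MET17, STP2 and SAM3 are named as nearest listed genes. MET3, MET5, MET10 and MET17 are also named as genes past the unadjusted threshold. For each regulator the 2 genes with the nearest profile are named. The search for promoter motifs was not run here. Alternatives were signals as deposited, median centring, no filter, log2(signal + 16), no trend, a replicate block and leaving out each array.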

Additional observations from a re-analysis of the deposited data

How the results depend on the processing

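Each regulator was recomputed under 10 alternatives. MET31, MET32, CBF1 and MET30 kept their sign in all 10, while MET28 and MET4 each turned in 1. MET28 stood at -0.44 without mutant replicate 1 (range over the left-out arrays -0.44 to 1.50), and MET4 at 0.10 without wild-type replicate 2 (-0.25 to 0.10). Over the left-out arrays, the ranges were -0.56 to -0.40 for MET31 and 0.59 to 0.63 for MET32. They were -0.53 to -0.11 for CBF1 and -0.39 to -0.18 for MET30. Over all 10 alternatives, MET31 ran from -0.63 to -0.40 and MET32 from 0.51 to 0.75. CBF1 ran from -0.53 to -0.11 and MET30 from -0.41 to -0.18. Leaving out an array leaves 1 in its strain, which is assumed to vary like the other strain. Same-numbered arrays deviated together from their strain means (correlation 0.634 across probe sets), but no label states what the numbers stand for, and 2 pairs are too few to settle it. With a replicate block, limma called 828 probe sets in place of 1, and MET28 (0.53, adjusted p = 0.0305) and MET31 (-0.48, adjusted p = 0.000397) were among them, with MET32 at 0.0804. In that fit the variances came from the mean-variance trend alone. The adjusted p of MET31 over its alternatives ran from 0.000397 to 1, and that of MET28 from 0.0305 to 1. The number of probe sets called was 6 in the deposited signals, 4 with median centring, 0 without the trend (280 at an unadjusted p under 0.05) and 2 to 4 with an array left out. The median of the Met30 partners was -0.17 in the deposited signals and -0.11 to -0.067 with an array left out. That of the 23 enzyme genes was 0.17 in the main fit and 0.07 in the deposited signals. With an array left out it was 0.09 to 0.23. The difference between MET32 and MET31 was 1.23 in the deposited signals and with median centring, 0.977 with log2(signal + 16), and 0.994 to 1.19 with an array left out. No other probe set is named for any regulator, so that alternative gave no value.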
